A study of Mus musculus with 6 samples.

Results

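Short noncoding genes that lie inside the introns of coding genes were described from the gene annotation used to count reads in the uromodulin study. A gene was included when it had no coding rows, a single gene ID, 1 exon in every transcript and an exon length of 50 to 150 bases, and when it lay within the span of a coding gene on the same strand without touching an exon base of that gene. On the main chromosomes of mm10, 1023 of 38253 gene names met this rule, in 794 of 22850 coding genes. The coding gene is called the host below, and the 1023 short genes are called members.

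The annotation was made for RNA sequencing of mTAL cells, an immortalised line from the thick ascending limb of the mouse nephron. The cells had been transduced with lentivirus carrying GFP-tagged human uromodulin, either wild type (3 libraries) or the C150S isoform (3 libraries), and both were collected at passage 3. Expression was driven by the SFFV promoter in both groups, endogenous uromodulin and NKCC2 were lost after immortalisation according to the study, and nothing in the labels says that the libraries came from separate transductions. Expression values were not analysed here, so nothing is said about either group or about markers of the cells, and all values below are positions, lengths and sequences without replicates.

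Introns carry several kinds of small RNA gene. Box C/D and box H/ACA small nucleolar RNAs (snoRNAs, symbols Snord and Snora) guide methylation and pseudouridylation of ribosomal RNA, and in mammals most are trimmed out of spliced introns, often of genes that take part in translation or ribosome assembly. Many microRNA (miRNA) hairpins are cut from introns by the microprocessor, and in mirtrons the whole spliced intron is the hairpin, so that no microprocessor step is needed. Genomes also hold many copies of small nuclear RNA (snRNA) and 5S ribosomal RNA genes, a large part of which are inactive.

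The sequences below show the 4 kinds of member on which the description turns. They were copied from GENCODE release M21 on GRCm38 (mm10 in the naming of UCSC), and only where the gene had the same position in both annotations, which held for 919 of the 1023 members. The first kind is a hairpin that fills an intron from exon to exon, and capitals mark its first and last 2 bases, the splice signals GT and AG. Gm24589 lay in Pkd1 (chr17:24594978-24595071, plus strand), Mir1224 in Vwa5b2 (chr16:20604452-20604536, plus strand), Mir1981 in Marc2 (chr1:184822407-184822488, minus strand), Mir3102 in Arhgef17 (chr7:100882306-100882409, minus strand) and Mir877 in Abcf1 (chr17:35960730-35960814, minus strand).
Gm24589: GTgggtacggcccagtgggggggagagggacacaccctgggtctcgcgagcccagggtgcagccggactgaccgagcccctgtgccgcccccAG
Mir1224: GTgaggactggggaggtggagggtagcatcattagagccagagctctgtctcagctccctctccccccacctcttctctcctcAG
Mir1981: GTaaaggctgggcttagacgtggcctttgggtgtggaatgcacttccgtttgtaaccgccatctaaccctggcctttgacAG
Mir3102: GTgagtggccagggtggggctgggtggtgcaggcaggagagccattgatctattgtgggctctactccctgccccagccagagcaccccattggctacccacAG
Mir877: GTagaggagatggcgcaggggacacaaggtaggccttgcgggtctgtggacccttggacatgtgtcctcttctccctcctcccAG

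The second kind is the snoRNA. Capitals mark the letters TGATGA of box C and CTGA of box D in 5 Snord members, those nearest to their downstream host exon among the members that held both boxes, and the letters ACA ahead of the last 3 bases in 2 Snora members. Snord4a lay in Rpl23a (chr11:78181686-78181756, minus strand), Snord69 in Gnl3 (chr14:31014287-31014366, minus strand), Snord37 in Eef2 (chr10:81178950-81179013, plus strand), Snord82 in Ncl (chr1:86356261-86356330, minus strand) and Snord83b in Rpl3 (chr15:80078498-80078591, minus strand). Snora31 lay in Tpt1 (chr14:75847905-75848034, plus strand) and Snora7a in Rpl32 (chr6:115807975-115808114, minus strand).
Snord4a: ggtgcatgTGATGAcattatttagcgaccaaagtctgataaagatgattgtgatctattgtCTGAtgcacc
Snord69: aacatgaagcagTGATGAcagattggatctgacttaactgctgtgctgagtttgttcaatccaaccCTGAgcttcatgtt
Snord37: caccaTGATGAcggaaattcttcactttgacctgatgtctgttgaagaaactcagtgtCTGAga
Snord82: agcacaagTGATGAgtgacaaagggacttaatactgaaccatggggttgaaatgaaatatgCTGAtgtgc
Snord83b: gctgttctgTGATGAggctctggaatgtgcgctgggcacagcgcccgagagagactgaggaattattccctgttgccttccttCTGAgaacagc
Snora31: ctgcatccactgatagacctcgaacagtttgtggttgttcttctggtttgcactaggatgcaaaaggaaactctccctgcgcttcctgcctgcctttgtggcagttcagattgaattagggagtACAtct
Snora7a: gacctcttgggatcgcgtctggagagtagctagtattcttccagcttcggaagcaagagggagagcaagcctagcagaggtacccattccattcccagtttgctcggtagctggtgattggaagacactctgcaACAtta

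The third kind is the repeated hairpin of the Sfmbt2 cluster on the plus strand of chromosome 2, shown by a hairpin with identical copies from 2 of its families: Mir466b-4 (chr2:10486423-10486512) and Mir669a-1 (chr2:10476853-10476949). The fourth kind is the copy of a dispersed gene. It is shown by Gm25548, which lies in Pdia5 (chr16:35440254-35440363, minus strand), the gene of a protein disulfide isomerase of the endoplasmic reticulum (ER).
Mir466b-4: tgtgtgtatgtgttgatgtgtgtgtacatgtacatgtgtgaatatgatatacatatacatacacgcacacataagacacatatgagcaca
Mir669a-1: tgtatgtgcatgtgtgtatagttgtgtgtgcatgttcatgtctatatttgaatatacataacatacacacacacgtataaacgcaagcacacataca
Gm25548: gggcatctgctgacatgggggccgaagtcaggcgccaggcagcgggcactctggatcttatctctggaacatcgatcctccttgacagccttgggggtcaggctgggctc

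By symbol, 678 members (66.3%) were Gm genes, the numbered placeholder names of mouse gene models. Another 260 (25.4%) were Mir genes in 168 hosts, 36 were Snord genes in 31 hosts and 18 were Snora genes in 17 hosts. The other 31 were 24 n-R5s genes (copies of 5S ribosomal RNA), 4 Scarna genes (small RNAs of the Cajal body) and Rnu73b, Rnu7 and AF357399. GENCODE M21 held 946 of the gene IDs, and its gene types divided the Gm genes into 191 snoRNAs, 183 snRNAs, 178 miRNAs, 38 ribosomal RNAs, 10 scaRNAs and 15 of other types, with 63 not in M21. Under these types 422 members were miRNAs and 250 were snoRNAs, so that most of the intronic snoRNAs carried a Gm symbol. Of the Gm genes, 12 had a Mir symbol in M21.

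The symbol classes differed in how often they lay in a coding intron on the host's strand. The annotation held 4932 short single-exon noncoding genes, of which 1023 (20.7%) were members, 749 lay in coding introns on the opposite strand only, 235 touched a coding exon and 2925 lay outside coding genes. Members made 54.5% of the 33 Snora genes, 48.0% of the 75 Snord genes, 39.2% of the 663 Mir genes, 17.6% of the 3860 Gm genes and 10.3% of the 301 others. Without the Sfmbt2 cluster the share of Mir genes was 32.0%.
Among genes that touched no coding exon and lay in introns of a single orientation, the same strand held 33 of 33 Snord genes, 18 of 19 Snora genes and 256 Mir genes, against 38 Mir genes on the opposite strand (87.1% on the same strand, or 83.0% without Sfmbt2). The counts for Gm genes were close to equal, with 662 on the same strand and 633 on the opposite strand. The 662 included the 49 Gm members of Sfmbt2, without which the opposite strand held slightly more. Among Gm genes, M21 miRNAs stood at 173 against 93, snoRNAs at 190 against 165 and snRNAs at 177 against 237. All 49 Gm members of Sfmbt2 were among the 173 miRNAs. Genes of the remaining class, mostly 5S ribosomal RNA copies, lay more often on the opposite strand, at 29 against 77. This did not hold for Gm genes typed as ribosomal RNA in M21, at 37 against 33. These are full counts of 1 annotation, given without a test.

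**Figure D1:**
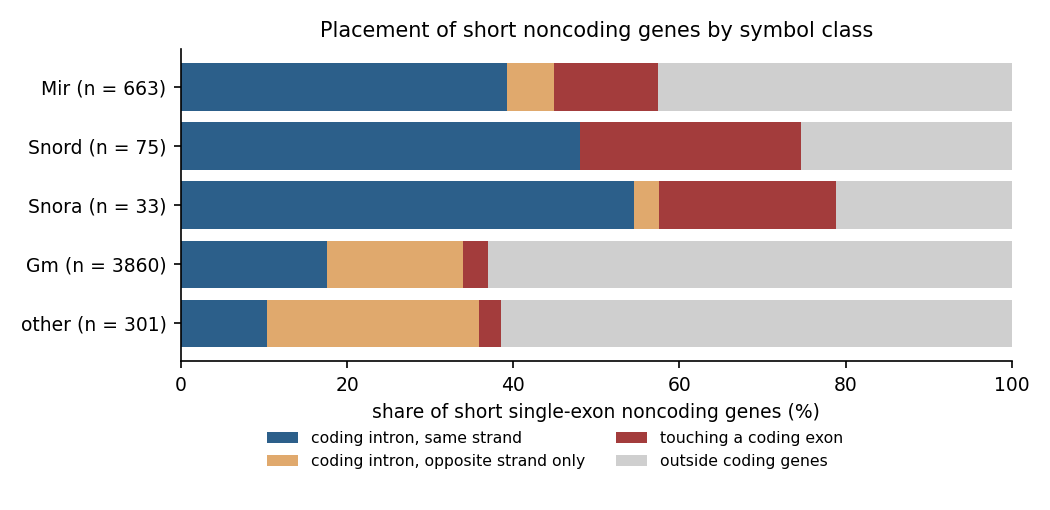
Share of short single-exon noncoding genes (%, x axis) in each symbol class (y axis, with the number of genes) by placement, as stacked bars. The same-strand coding intron holds 54.5% of Snora and 48.0% of Snord genes but 17.6% of Gm genes, and no Snord gene lies in a coding intron on the opposite strand only.

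Members ran from 51 to 150 bases with a median of 104. The shortest were Gm23685 in Tmem123 (51 bases) and Gm25998 in Ralgps1 (53 bases), and no gene under 50 bases met the other conditions. At the upper limit lay Gm22248 in Fam120c and Gm22611 in Blmh (150 bases each), while Gm14422 in Prkcb and Gm25411 in Map2 (151 bases) fell just outside. Between the limit and 1000 bases there were 514 genes that met the other conditions. Of the members, 455 were shorter than 100 bases and so shorter than 1 sequencing read.

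Snord and Snora members lay closer to the exons of their hosts than the other classes did. The gap, the number of bases between a member and the nearest exon of its host, had a median of 2320 bases over all members, with quartiles of 466 and 10969 bases. It had a median of 73.5 bases for Snord members and 98.5 for Snora members. Medians were 4259.5 bases for Mir members, 2354.5 for Gm members and 1472 for the other symbols. Without Sfmbt2 they were 1614.5 bases for Mir and 1989 for Gm members, so that the order of these classes turned. A gap under 100 bases, shorter than 1 read, was found in 97 of 1023 members (9.48%). These included 26 of 36 Snord (72.2%) and 9 of 18 Snora members (50.0%), against 18 of 260 Mir (6.92%) and 41 of 678 Gm members (6.05%). Gm members typed as snoRNA in M21 lay in between, with a median gap of 805 bases and a gap under 100 bases in 24 of 191 (12.6%).
The introns themselves differed likewise. The intron that held the member had a median length of 512 bases for Snord, 782.5 for Snora, 11725.5 for Gm and 22156.5 for Mir members. Without the single Sfmbt2 intron the median was 9818 bases for Gm and 8633 for Mir members, so that their order turned here as well. A short intron leaves room for a short gap only, and the part of intron length in the gaps was not tested.

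**Figure D2:**
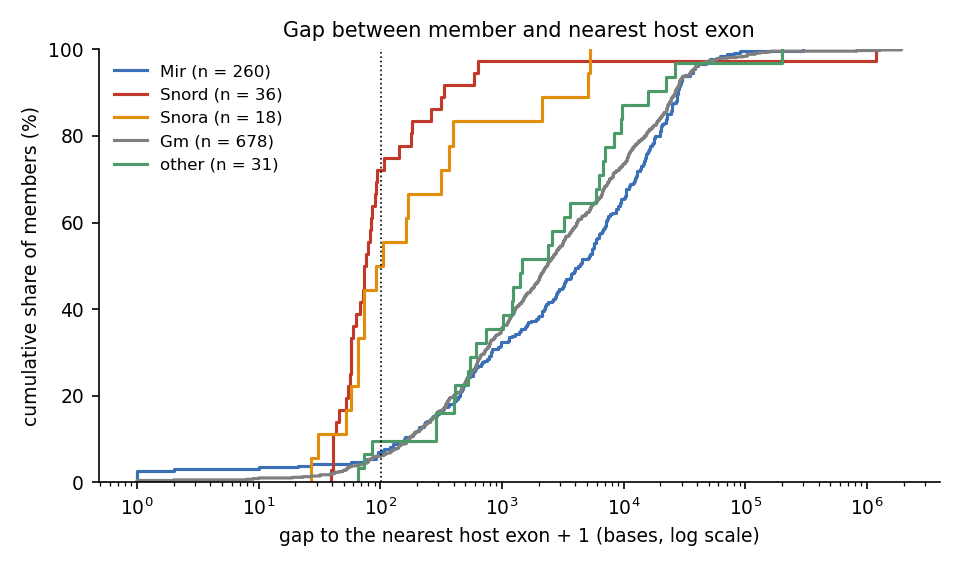
Cumulative share of members (%, y axis) by gap to the nearest host exon plus 1 base (log scale, x axis) for the 5 symbol classes. The dotted line marks a gap of 100 bases, below which lie 72.2% of Snord and 50.0% of Snora members but 6.92% of Mir and 6.05% of Gm members.

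The nearest Snord members were Snord11 in Nop58 (38 bases), then Snord19 in Gnl3, Snord23 in Gltscr2 and Snord82 in Ncl, tied at 40 bases. Nop58 encodes a core protein of box C/D particles, and Gnl3 encodes the nucleolar GTPase nucleostemin. Snora21 in Rpl23 (30 bases) and Snora62 in Rpsa (51 bases), both in ribosomal protein genes, were among the 3 nearest Snora members. At the far end Snord92 in Wdr43 (639 bases) and Snord8 in Chd8 (591 bases) were still close to an exon.
Snord68 stood apart from every other Snord member, at 1192234 bases. Its host here was Gm20388, a gene model with a gap of 4384418 bases between its exons that also held the 3 farthest Gm members, Gm24283 (1919496 bases), Gm22356 (1270603 bases) and Gm25428 (823860 bases). Snord68 shared exon bases with a transcript of Rpl13, a ribosomal protein gene, so that Rpl13 could not be its host under the rule. The farthest Mir members were Mir383 in Sgcz (299073 bases), Mir3059 in Mgat4c (90741 bases) and Mir701 in Ttc28 (80769 bases), and the farthest Snora members were Snora47 in Zbed3 (5255 bases), Snora35 in Htr2c (5052 bases) and Snora36b in Rab3gap2 (2146 bases).

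Snord members lay near the exon on either side, and 19 of 36 were nearer to the downstream exon. The gap to the downstream exon, in the direction of transcription, had a minimum of 55 bases and a median of 92, and the upstream gap had a minimum of 38 and a median of 195. The downstream gap was 50 to 100 bases in 21 of 36 Snord members (58.3%), and the upstream gap in 8 of 36 (22.2%). This window was chosen after the values were seen, and it leaves out gaps under 50 bases, which were found upstream in 6 Snord members and downstream in 0. The 5 Snord members printed above had downstream gaps of 55 (Snord4a), 59 (Snord69), 67 (Snord37), 67 (Snord82) and 71 bases (Snord83b). For Snora members the window held 3 of 18 downstream and 5 of 18 upstream gaps, and the downstream median was 190 bases.
Of the Gm members typed as snoRNA in M21, 24 had box C and D letters. The window held the downstream gap of 8 of these and the upstream gap of 7. Only 6 of the 24 were nearer to the downstream exon, and the median gap was 284.5 bases downstream and 110.5 upstream. For the 81 with the ACA letters but not both boxes, the window held 2 downstream and 3 upstream gaps. It held 1 downstream and 9 upstream gaps of 260 Mir members, and 1 of each in 183 Gm snRNAs. Another 11 Mir members had a downstream gap under 50 bases, and 4 an upstream gap under 50 bases.

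**Figure D3:**
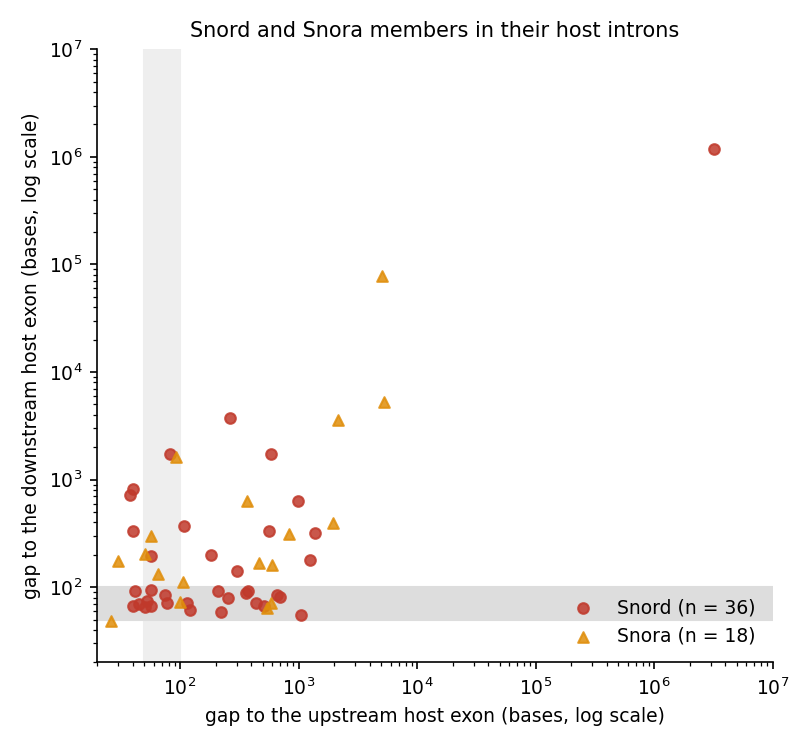
Gap to the upstream (x axis) and downstream host exon (y axis), in bases on log scales, for 36 Snord (circles) and 18 Snora members (triangles), with grey bands from 50 to 100 bases on each axis. The horizontal band holds 21 Snord members and the vertical band 8, and the isolated point at the upper right is Snord68 in Gm20388.

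The boxes were read from the sequences with fixed letters on the gene's own strand: TGATGA within the first 20 bases for box C, CTGA within the last 15 bases for box D, and ACA followed by exactly 3 bases for the H/ACA tail. Box C letters were found in 18 of 34 Snord members with a sequence and box D letters in 28 of 34, while none had the ACA tail. The ACA tail was found in 16 of 18 Snora members (88.9%), which held neither box. Among 187 Gm snoRNAs with a sequence, 24 (12.8%) had both box C and box D and 82 (43.9%) had the ACA tail. Of the 773 members outside the Snord, Snora and Gm snoRNA sets, 675 had a sequence. Among these 675, 1 had both boxes (0.148%), a Mir member, and 28 had the tail (4.15%). The 773 were not free of snoRNAs, since they included members such as Mir3068 and Mir677 that M21 types as snoRNA.

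Intronic snoRNAs were dense in the introns of ribosomal protein genes, although most of the 263 snoRNA and scaRNA members lay in other hosts. Of 81 ribosomal protein genes with introns, 23 (28.4%) were hosts, against 794 of 19681 of all coding genes with introns (4.03%). The 23 hosts held 36 members, 35 of them snoRNAs. Over the 0.223 megabases of intron in all 81 genes, that made 161 members per megabase of intron, against 1.03 over all coding genes. Examples were Snord35a in Rpl13a, Snora7a in Rpl32, Snord15a in Rps3 and Snord100 in Rps12. The exception in type was Mir3091 in Rps21, which lay 9 bases from the downstream exon.
Genes with Eif or Eef symbols, which cover translation factors but also Eif2ak3, the gene of a kinase, had 10 hosts among 62 genes with introns and 12 members, 9 of them snoRNAs, or 8.90 per megabase. They included Snord37 in Eef2, the elongation factor that moves the ribosome along, Snord66 in Eif4g1, the scaffold of the cap-binding complex, and Mir1956 in Eif4e, the cap-binding protein. In a short hand-made list of 11 genes for nucleolar and snoRNP proteins (Nop56, Nop58, Ncl, Npm1, Dkc1, Fbl, Nhp2, Gar1, Nolc1, Nop14 and Nop2), which leaves out other nucleolar genes such as Gnl3, 4 were hosts with 9 members, or 89.1 per megabase. They were Nop58 and Nop56, which encode core proteins of box C/D particles, Dkc1, which encodes the pseudouridine synthase of H/ACA particles, and Ncl, which encodes nucleolin. Of 26 genes with introns and a symbol starting with Hsp, which leaves out chaperone genes with other symbols, Hspa9, the gene of a mitochondrial chaperone, was the only host, with the snoRNA genes Gm22200 and Gm26109.

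**Figure D4:**
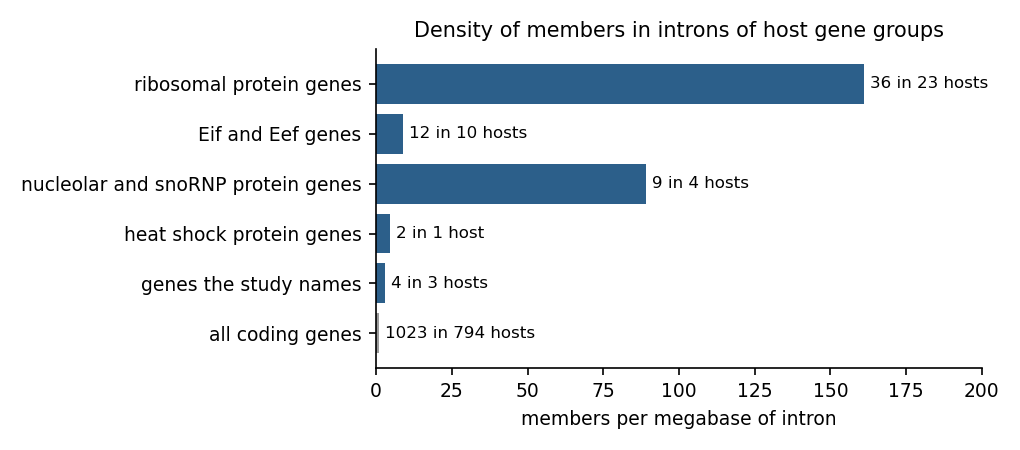
Members per megabase of intron (x axis) in 5 groups of coding genes and in all coding genes (y axis), with the number of members and hosts beside each bar. Ribosomal protein genes stand at 161 per megabase and the 11 listed nucleolar and snoRNP protein genes at 89.1, against 1.03 for all coding genes.

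Of 50 genes with introns that the study names in its tables and text, 3 were hosts (6%). The share over all coding genes with introns was 4.03%, so 3 hosts are no sign of an excess. Atf6, a membrane-bound transcription factor of the unfolded protein response, held the snRNA genes Gm23523, 4526 bases from an exon, and Gm25235, 1948 bases from an exon. Eif2ak3, which encodes the stress kinase PERK, held the snoRNA gene Gm23346 at 2807 bases in its first intron of 13365 bases. Pdia5 held the miRNA gene Gm25548 at 2073 bases. No member in these hosts lay within a read length of a host exon.

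Most hosts held a single member. Of the 794 hosts, 710 held 1 member, 66 held 2, 12 held 3, 2 held 4, 2 held 5, 1 held 8 and 1 held 119. The 84 hosts with several members held 313 members between them. In 31 of these hosts all members were snoRNAs or scaRNAs, and 28 of the 31 had each member in an intron of its own. In 19 hosts all members were miRNAs, and in 14 of the 19 all lay in the same intron. The other 34 hosts had members of mixed or other types, and 26 of them had each member in its own intron.
Rpl4, a ribosomal protein gene, was the largest host of the first kind, with Gm23344, Snord16a, Gm22571, Gm23136 and Gm22455 in 5 introns of 198 to 724 bases, at gaps of 52 to 181 bases. Nop58 held Snord70, Gm26293, Gm26287 and Snord11 in 4 introns at gaps of 38 to 316 bases. Ncl (Snora75, Gm24148 and Snord82), Gnl3, Rpl17, Rps12 and Wdr43 held 3 snoRNAs each in 3 introns.
Of the second kind, Clcn5 held Mir500, Mir501, Mir362, Mir188 and Mir532 in 1 intron of 103648 bases, between 24672 and 35391 bases from an exon. Clcn5 encodes the endosomal chloride-proton exchanger of the kidney proximal tubule that is mutated in Dent disease. Cdc20b held Mir449c, Mir449b and Mir449a in an intron of 2436 bases, and Ttll10 held Mir429, Mir200a and Mir200b, 3 miRNAs of the epithelial miR-200 family, in its first intron of 8178 bases. Htr2c, the gene of a serotonin receptor, mixed types, with Snora35, Gm22650, Mir764, Mir1912, Mir1264, Mir1298, Gm24627 and Mir448 in 2 introns of 83056 and 91505 bases. The hosts B4galt1, Bcas3 and Cntn5 held 3 members each, at least 887 bases from an exon.

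The Sfmbt2 cluster was the exception in size. Sfmbt2, which encodes a Polycomb group protein, held 119 members (11.6% of all) in intron 13 of its 25 introns (chr2:10461473-10523944, 62472 bases), and 26.9% of all Mir members lay there. All 119 were on the plus strand. By symbol 29 were Mir669, 22 Mir466, 14 Mir467, 4 Mir297, 1 Mir4660 and 49 Gm genes, and M21 typed 107 of the 119 as miRNA and lacked the other 12. From the first to the last member the cluster measured 52993 bases, beginning 3814 bases after the upstream exon and ending 5665 bases before the downstream exon. Neighbours did not overlap, and the 118 spacings ran from 70 to 2575 bases with a median of 205. Members covered 19.7% of the intron.
The order of the families repeated along the intron. A Mir467 gene was followed directly by a Mir466 gene in 13 of 14 cases, and the series Mir467, Mir466, Mir669 occurred 11 times, 6 of them followed by 3 Gm genes. The starts of successive Mir467 genes were 1909 to 4880 bases apart, with a median of 2450 bases. Among 107 members with a sequence there were 84 distinct sequences, and 38 members fell into 15 sets of identical sequence. The most copied hairpin was shared by 7 members, that printed for Mir466b-4 by 3 members and that for Mir669a-1 by 2. In all, 4 Gm members were identical to a Mir member of the cluster. The order above was read by symbol and leaves such copies out. Gm25285, identical to Mir466c-2, directly followed Mir467a-6, the Mir467 gene without a Mir466 gene next to it. Gm25022, identical to Mir467a-9, lay within the longest step between Mir467 starts, from Mir467a-9 to Mir467a-10. The bases around the copies were not compared, so the share of reads that would match several copies was not tested.

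**Figure D5:**
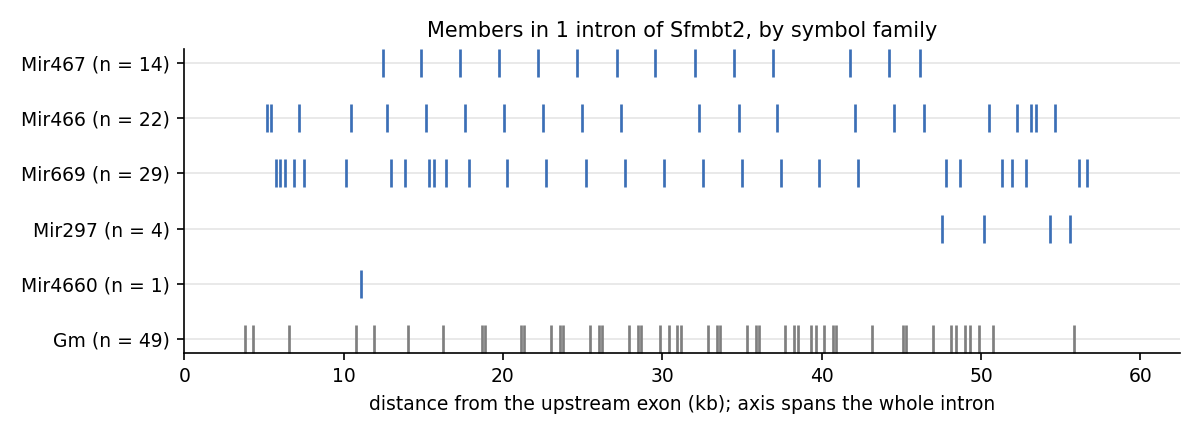
Position of the 119 members in 1 intron of Sfmbt2, in kilobases from the upstream exon (x axis, drawn over the whole intron), by symbol family (y axis, number of members in brackets), with 1 tick for each member. Mir467, Mir466 and Mir669 genes recur at a median distance of 2450 bases between Mir467 starts, and Mir297 genes lie at the downstream end.

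Outside Sfmbt2, sequence identity joined members of different hosts. Over all members with a sequence there were 24 sets of identical sequence with 66 members, and 5 of the sets, with 20 members, spanned several hosts. The largest set held 8 snRNA members in 8 hosts, among them Dmd, Macrod2, Arnt2 and Col25a1. The whole of M21 held 43 transcripts with that sequence. The sequence of Gm25548 in Pdia5 was shared by 6 members in 5 hosts and by 16 transcripts in M21.

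Members directly next to an exon of their host formed a small group. In 10 members a gap was 0, so that no base lay between the member and an exon, and all 10 were miRNAs in M21. In 5 of them, printed above, both gaps were 0, so that the gene was the whole intron of 82 to 104 bases, and all 5 began with GT and ended with AG. Abcf1 encodes a ribosome-associated ATPase, and Pkd1 encodes polycystin-1, the protein mutated in polycystic kidney disease. Gm23720 in Nav1, Mir3100 in Dmpk, Mir3097 in Rgs12 and Mir3094 in Nfx1 were next to the downstream exon only, and all 4 ended with AG. Gm25192 in Syn1 was next to the upstream exon only and began with GT. Among 909 members with a sequence and no gap of 0, 18.8% began with GT and 4.40% ended with AG.
RefSeq places a mature miRNA at the intron ends of 3 of the 5. The 5p sequences of Mir1224, Mir1981 and Mir877 begin at the first base of the intron, and are printed with the seed (bases 2 to 8) in capitals.
miR-1224-5p: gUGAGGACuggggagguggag
miR-1981-5p: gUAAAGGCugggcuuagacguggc
miR-877-5p: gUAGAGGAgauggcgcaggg

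Mature sequences from RefSeq (GRCm38.p6) matched 180 members. A hairpin of the RefSeq table used here was found for 161 of the 190 Mir members outside Sfmbt2 and for none inside it, so the seed counts do not cover that cluster. The matches gave 305 mature sequences with 277 distinct seeds, and 18 seeds occurred in members of 2 or more hosts. In several of these groups the hosts were paralogs as well. Mir103-1 in Pank3, Mir103-2 in Pank2 and Mir107 in Pank1, 3 pantothenate kinase genes of coenzyme A synthesis, shared the seed GCAGCAU. Mir26a-1 in Ctdspl and Mir26b in Ctdsp1, 2 small phosphatase genes, shared UCAAGUA, and Mir208a in Myh6 and Mir208b in Myh7, the cardiac myosin heavy chains, shared UAAGACG. Mir499, in the third myosin gene Myh7b, had the seed UAAGACU. Mir15b and Mir16-2 shared AGCAGCA within 1 intron of Smc4, a condensin gene. In Clcn5, Mir500 and Mir501 shared the 3p seed AUGCACC, and Mir500 and Mir362 the 5p seed AUCCUUG.
miR-103-3p: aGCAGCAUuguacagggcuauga
miR-107-3p: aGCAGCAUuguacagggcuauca
miR-26a-5p: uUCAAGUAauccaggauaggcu
miR-26b-5p: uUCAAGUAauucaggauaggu
miR-208a-3p: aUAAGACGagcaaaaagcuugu
miR-208b-3p: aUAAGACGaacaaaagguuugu
miR-499-5p: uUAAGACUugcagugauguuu
miR-15b-5p: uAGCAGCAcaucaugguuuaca
miR-16-5p: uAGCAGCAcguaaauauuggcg
miR-500-3p: aAUGCACCugggcaaggguuca
miR-501-3p: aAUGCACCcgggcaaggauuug
miR-500-5p: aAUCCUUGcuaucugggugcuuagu
miR-362-5p: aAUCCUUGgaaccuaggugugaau

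Of 34 symbols of well-known intronic miRNAs that were looked up, 30 were members. The gap to the nearest exon was 688 bases for Mir103-1, 454 for Mir103-2 and 326 for Mir107, and it was 195 bases for Mir208a, 102 for Mir208b and 158 for Mir499. Mir33 lay 335 bases from an exon in intron 16 of Srebf2, the gene of a transcription factor of cholesterol synthesis. Mir106b lay 20 bases from the downstream exon in an intron of 193 bases of Mcm7, a replicative helicase gene. The other miRNAs of that cluster, Mir93 and Mir25, touched an exon base of Mcm7 and were therefore not members, and neither was Mir26a-2 in Ctdsp2. No gene was named Mir190a, and Mir190 was a member in Tln2. Mir126, usually assigned to Egfl7, lay in the gene model Gm20532 because it shared exon bases with Egfl7.

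Some members carried both kinds of RNA. In 9 members that M21 did not type as miRNA, RefSeq placed a mature miRNA, and all 9 were snoRNAs or scaRNAs. They were Snora19 in Eif3a, Gm23658 in Cbwd1, Snora34 in Kansl2, Snora36b in Rab3gap2, Gm24148 in Ncl, Scarna3a in Rfwd2, Scarna3b in Dcaf5, Mir3068 in Alkbh1 and Mir677 in Atp5b. Snora19 (chr19:60774330-60774461, minus strand) and Gm23658 had identical sequences of 132 bases and both held miR-3084.
Snora19: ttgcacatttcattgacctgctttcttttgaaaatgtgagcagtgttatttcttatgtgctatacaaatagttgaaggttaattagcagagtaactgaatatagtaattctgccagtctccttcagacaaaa
miR-3084-5p: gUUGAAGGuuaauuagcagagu
miR-3084-3p: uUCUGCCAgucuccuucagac

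Counting by gene name bears on 2 groups of members. In the union mode of htseq-count, a read that overlaps exons of 2 names is assigned to neither. Exon bases were shared with another gene name by 20 members, 12 of them with a coding gene. They included Snord42a and Snord4a with Tlcd1, Snord68 with Rpl13, Mir126 with Egfl7, Rnu7 with Grcc10 and Gm23134 with Nnat. When only the same strand was taken as overlapping, the number was 12. It was 82 when only host transcripts with coding rows set spans and exons, and 8 when members touching any coding exon were left out. In addition, 97 members had a gap under 100 bases. They lie close enough to a host exon for 1 read of unspliced host RNA to touch both. The reads were paired, and members within reach of a read pair at larger gaps were not counted. Sizes of the effect on counts were not tested. All 1023 members lay inside an intron of at least 1 host transcript, and 10 members had 2 hosts.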

How the data were processed

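The study sequenced RNA of 3 wild type and 3 C150S libraries of mTAL cells. Per the labels and the methods, the authors aligned paired reads with STAR 2.3.0 to mm10 with the added construct and counted exon rows by gene name with htseq-count in union mode. The annotation the authors deposited for this step was analysed here. Its start and end columns hold positions, used as deposited. Read counts, their depth and precision were not analysed here.

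Exons were merged per gene name. A gap is the number of bases between a member and the nearest exon of any transcript of its host, or of the host with the nearest exon where there were 2. Gene types and sequences came from GENCODE M21 by gene ID, and mature miRNAs from RefSeq by position. Coding genes were grouped by symbol or by fixed lists. Genes that the study shows only in a picture were not used. Names in the text were drawn from the 10 hosts with the most members (ties by symbol), examples of the hosts and members of the gene lists, the 3 nearest and 3 farthest members of each class, and known intronic miRNAs. Some items of these sets are not reported here. Other names, such as the members next to an exon or sharing bases and the other hosts with 3 members, were chosen after the values were seen. The members and lists were chosen with earlier results of these data known. The steps that find members and gaps were tested on simulated annotations, where 1600 of 1600 genes had the values of a base-by-base count. Python 3.11.15 was used, with scipy 1.17.1 for binomial limits, numpy 2.4.6, and matplotlib 3.10.9 for drawing.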

Additional observations from a re-analysis of the deposited data

How the results depend on the processing

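Under 11 alternatives set with the rule, 110 values were recomputed. Counts moved by less than 1.5 times, and medians stayed within their 95% binomial interval (1989 to 2807 bases for the gap to the nearest host exon), in 96 of them. With host strand ignored there were 1777 members in 1354 hosts, of which 195 held several members, with 1315 Gm members and 108 of other symbols, a median gap of 2939 bases and 31 members sharing an exon base. The number sharing a base was 82 when only host transcripts with coding rows set spans and exons, 8 when members touching any coding exon were left out, and 12 with strand used. The median gap was 1577.5 bases without Sfmbt2, 1711.25 with 1 value per host and 792 to the nearest exon of any other gene name, where 152 members had under 100 bases. No paired analysis was possible because the values come from 1 annotation and from no test. Placement in an intron says nothing about transcription of a member, and the depth behind any member was not analysed here.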

Other observations

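Members of rarer types lay in introns as well. Gm22714, typed as a ribozyme in M21, was 78 bases long and lay 9863 bases from an exon in an intron of 34745 bases of Cpeb3, a gene known to hold a self-cleaving RNA. The 24 n-R5s members lay in 24 hosts at a median gap of 2927 bases, from n-R5s169 in Fam133b (64 bases) to n-R5s48 in Enox1 (22123 bases), n-R5s31 in 2310008H04Rik (26480 bases) and n-R5s95 in Fam155a (201827 bases). The 4 Scarna members included Scarna8 in Haus6 (73 bases) and Scarna9 in 5830418K08Rik (84 bases). Members lay on 21 chromosomes, 601 on the plus strand, and chromosome 2 held 198, or 79 without Sfmbt2.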
